A study of Mus musculus with 6 samples.

Results

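The integrin subunits and leukocyte adhesion molecules were examined in tumor-associated macrophages (TAMs) of a mouse melanoma, sorted into F4/80high and F4/80low subsets. Members were taken by gene name among the rows the count files mark as protein-coding: names starting with Itga or Itgb, except Itgbl1 and names holding "bp", names of Icam followed by a digit, and Vcam1, Pecam1, F11r, Jam2, Jam3, Cd44, Selp, Sele, Cd34, Cd47 and Alcam. A gene also needed at least 10 counts summed over the 6 libraries. All 41 rows with such names met that minimum, out of 14776 protein-coding genes tested. The rule itself uses no measured difference, though it was set with earlier results of these data known. The members comprised 26 integrin subunits (18 alpha and 8 beta) and 15 other molecules.

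Integrins are receptors of paired alpha and beta chains that bind matrix proteins or counter-receptors on other cells, and each pair is defined by which alpha joins which beta. Leukocytes carry the beta2 pairs, in which CD11a, CD11b, CD11c or CD11d joins CD18, and the alpha4 pairs, which bind VCAM-1, MAdCAM-1 and fibronectin. Selectins and their ligands slow leukocytes on the vessel wall, while ICAMs, VCAM-1, PECAM-1 and the junctional adhesion molecules take part in firm arrest and passage between endothelial cells. On macrophages, integrins also serve adhesion to matrix and the uptake of particles and dying cells.

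The tumors came from YUMM1.7, a mouse melanoma cell line, grown intradermally in wild-type C57Bl/6J females that were 8 weeks old at inoculation, received no treatment and gave their tumors at day 21. Both subsets of a replicate were collected by FACS out of the same pooled tumors, among live CD45+ lineage-negative CD11b+ cells, in 3 independent experiments, which gave 3 pairs of bulk poly(A) RNA-seq libraries. Because CD11b was a gate for both subsets, its gene, Itgam, was selected for in every library. The design asks how the subsets differ, and here each F4/80high library was set against the F4/80low library with its replicate number.

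Libraries held 16045281 to 43604373 counts, those of replicate 3 being the smallest, and the members took 0.371% to 0.670% of each. Both replicate 3 libraries, which the study treats as a second batch, had 16.1% to 17.1% of their counts in Lars2, Gm23935 and Gm15564 against 0.378% to 0.609% elsewhere. Adgre1, which encodes F4/80, had a log2 fold change of 0.62 ± 0.21 (SE) with an adjusted p of 0.350 by edgeR's quasi-likelihood test, and was higher in F4/80high in all 3 pairs. Macrophage markers summed to 5550.5 to 31060.2 CPM (counts scaled to a common library total) in F4/80high and 4889 to 13885 in F4/80low. In the fit 9 of these 10 markers were higher in F4/80high, 6 of them at an unadjusted p under 0.05, and 1 was lower. All 8 eosinophil markers had lower fitted values in F4/80high, summing to 93.6 to 187 CPM there and 270.1 to 619.9 in F4/80low. Likewise, all 10 neutrophil markers were lower, at 507 to 1805 against 1055 to 3866 CPM, and all 9 of mast cells and basophils, at 9.88 to 121 against 48.2 to 427, with 7 of 8 dendritic cell markers lower as well, at 79.8 to 287 against 137 to 488. No listed marker found in the files was at 0 in all 6 libraries. The 9 T and NK cell markers tested were all higher in the fit, at 284 to 1585 against 138 to 778 CPM. In sorted bulk samples, fewer cells of a type and less RNA per cell cannot be told apart, and the part of these markers in the results on the members was not tested.

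Among the 41 members, Itga9, the alpha9 chain, was the 1 gene that passed the threshold, and it was higher in F4/80high TAMs. A call required an adjusted p under 0.05 over all genes tested and a fold change above 2 in either direction, and it was met by 0.514% of all genes (76 of 14776) and by 2.44% of members. By direction, calls of a higher level in F4/80high took 0.23% of genes, calls of a lower level took 0.284%, and no member had a lower call. Below that threshold, 12 members had an unadjusted p under 0.05, or 29.3% against 9.84% of all genes. Of these, 4 were higher in F4/80high (Itga9, Itga6, Vcam1 and Itgb5, 9.76% of members against 3.96% of genes) and 8 were lower (Itgb7, Itga4, Cd34, Itgal, Cd44, Itgax, Itga2b and Selp, 19.5% against 5.88%). The members' median log2 fold change was -0.33, where all genes had a median of 0.00, and 24.4% of members against 49.6% of genes had a value above 0. The median difference was below 0 in every pair, at -0.18, -0.45 and -0.14. Within pairs, 14 members were lower in F4/80high 3 times out of 3 (34.1%, against 15.7% of genes) and 6 were higher (14.6%, against 16% of genes), which made 48.8% of members against 31.7% of genes with 3 pairs in agreement. These shares are descriptions of a list of related genes and were not tested as a set.

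**Figure D1:**
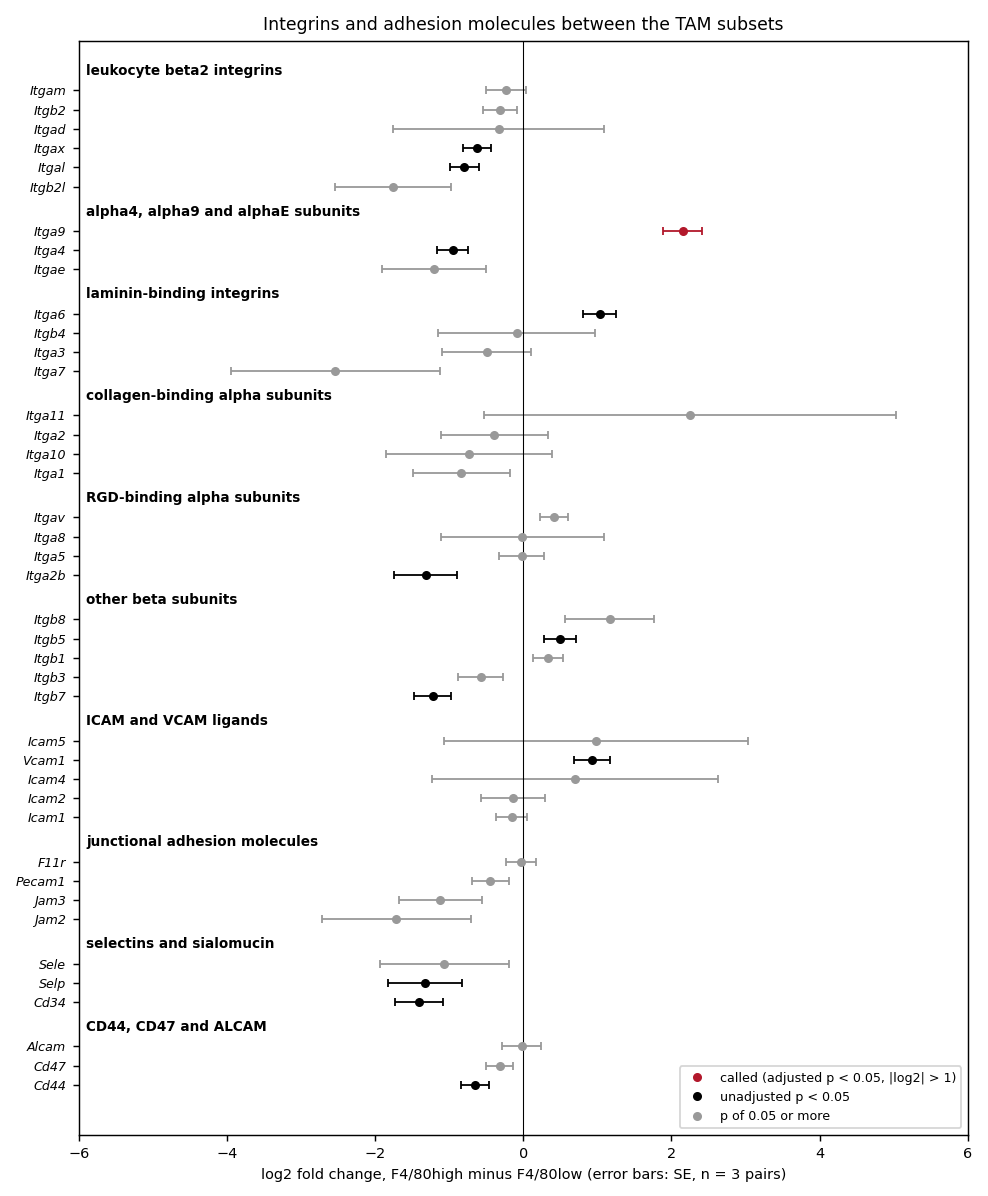
Log2 fold change of each of the 41 members between F4/80high and F4/80low TAMs (x axis, bars are SE, n = 3 pairs), grouped by role. Itga9 at 2.15 is the 1 called gene, 11 further members in black have an unadjusted p under 0.05, and most points lie left of 0.

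Within the group of alpha4, alpha9 and alphaE chains, Itga9 was higher in F4/80high, while Itga4 had lower values in every pair. Itga9 (chr9:118606690-118901003, plus strand, GRCm38 in GENCODE M21) encodes the alpha9 chain, which joins beta1 and binds tenascin-C, osteopontin and VCAM-1. Its normalised level was 28.2, 83.2 and 78.1 CPM in F4/80high replicates 1 to 3 and 7.72, 21.1 and 12.5 CPM in F4/80low. Every F4/80high library lay above every F4/80low library, as for 2.27% of all genes and for no other member. In 5 further members (Itga4, Cd34, Itga7, Jam2 and Sele) every F4/80low library lay above, as for 2.88% of genes, so that the subsets did not overlap for 6 members (14.6%) against 5.16% of genes. For Itga9 the log2 fold change was 2.15 ± 0.26 (SE, n = 3 pairs), a 4.44-fold difference, with an adjusted p of 0.0281 by edgeR, and the pairs gave 1.86, 1.97 and 2.63. The call was lost when the replicate number was replaced by the batch term (log2 fold change 2.17, adjusted p 0.456), an edgeR fit in which 0 genes (0%) passed and 1118 had an unadjusted p under 0.05. DESeq2 called it with the same batch term (2.19, adjusted p 0.00395), together with Cd34 and 1.02% of all genes.

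Itga4, the alpha4 chain of VLA-4 and of the gut-homing receptor LPAM-1, went the other way without passing the threshold. It read 90.1, 47.3 and 83.5 CPM in F4/80high and 141, 110.5 and 166 CPM in F4/80low, and the groups did not overlap. The log2 fold change was -0.95 ± 0.21 (SE) with an adjusted p of 0.107 by edgeR, and the pair differences were -0.65, -1.22 and -0.99. Its exons share 1124 bases with Cerkl on the opposite strand, which had 313 counts in all against 18371 for Itga4. Per length, in FPKM, which is CPM divided by gene length in kilobases, Itga9 was 0.569, 3.20 and 1.70 times the level of Itga4 in F4/80high, against 0.0995, 0.348 and 0.137 times in F4/80low. Its share of the alpha4 and alpha9 total was 36.3%, 76.2% and 63.0% in F4/80high, against 9.05%, 25.8% and 12.04% in F4/80low. That these shares did not overlap follows from the separation of each gene given above. Itgae, the CD103 chain of resident T cells and a class of dendritic cells, was low in F4/80high replicate 2 and had no shared direction. It stood at 36.8, 0.795 and 6.80 CPM in F4/80high and 35.5, 11.2 and 8.31 CPM in F4/80low, with pairs of 0.05, -3.72 and -0.29 and a log2 fold change of -1.20 ± 0.70 (SE).

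The beta7 chain, which joins alpha4 or alphaE and binds MAdCAM-1 or E-cadherin, was lower in F4/80high in every pair without a call. Itgb7 measured 226, 90.4 and 35.3 CPM in F4/80high and 332, 244 and 114 CPM in F4/80low. The groups overlapped, replicate 1 being the highest and replicate 3 the lowest of each subset, and the pair differences were -0.55, -1.43 and -1.69. The fit gave -1.22 ± 0.25 (SE) on the log2 scale with an adjusted p of 0.0931 by edgeR. DESeq2 with the same replicate block called it (-1.22, adjusted p 0.000428), along with Itga9, Itga6 and Cd34 and 2.42% of all genes. Without replicate 1, where 2.57% of genes passed, edgeR called the same 4 members and Itga4. As a share of beta1 and beta7 FPKM, Itgb7 took 42.8%, 18.1% and 7.56% in F4/80high, against 50.8%, 46.6% and 27.7% in F4/80low. Beta7 integrins are known on eosinophils, mast cells and dendritic cells, most of whose markers were lower in F4/80high as given above, and on T and NK cells, whose 9 tested markers were higher, and the part of either in this result was not tested.

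Itga4 and Itgb7 are partners that were lower together in all 3 pairs, so the 250 bases before the RefSeq start of each are shown, read 5′ to 3′ on the gene's strand of GRCm38.p6. The windows are chr2:79255176-79255425 (plus strand) for Itga4 and chr15:102231936-102232185 (minus strand) for Itgb7. Capitals mark a match, on either strand, to any of 3 motifs, namely the PU.1 core GAGGAA, the AP-1 site TGANTCA or the GC box GGGCGG, and no match overlapped another.
Itga4 promoter: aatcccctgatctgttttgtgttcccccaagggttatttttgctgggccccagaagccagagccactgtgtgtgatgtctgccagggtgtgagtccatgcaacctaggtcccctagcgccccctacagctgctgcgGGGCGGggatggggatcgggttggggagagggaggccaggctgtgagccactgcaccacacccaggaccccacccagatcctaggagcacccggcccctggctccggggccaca
Itgb7 promoter: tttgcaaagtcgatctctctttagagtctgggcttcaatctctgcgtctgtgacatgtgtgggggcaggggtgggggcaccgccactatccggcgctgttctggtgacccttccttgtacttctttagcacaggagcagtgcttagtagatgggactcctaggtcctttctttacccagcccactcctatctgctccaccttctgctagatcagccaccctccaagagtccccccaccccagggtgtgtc
Itga4 held 1 GC box, starting 114 bases before the start site, and Itgb7 held none of the 3 motifs. In the same 250 bases before the start, 23.3% of 32851 RefSeq promoter windows held the PU.1 core, 6.75% the AP-1 site and 32.7% the GC box. A match is a run of letters and not a measured binding site.

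**Figure D2:**
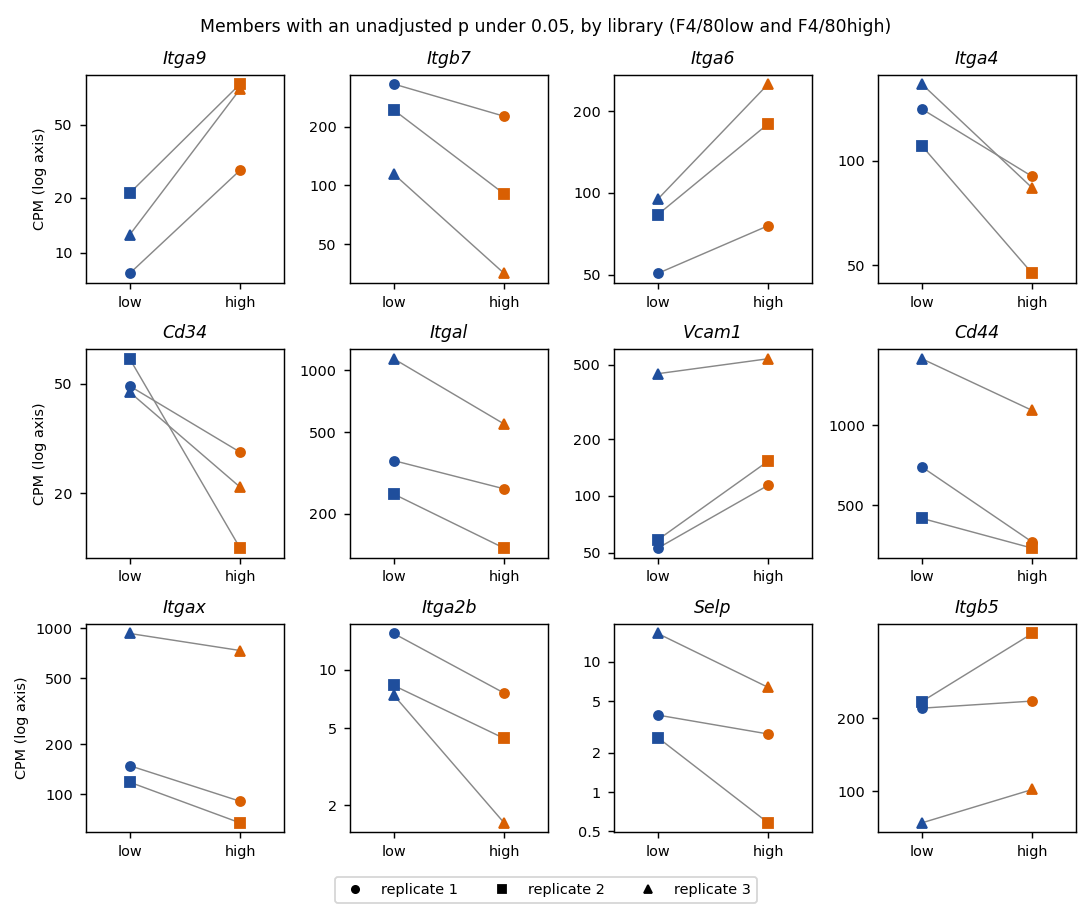
CPM (log axis) of the 12 members with an unadjusted p under 0.05, in F4/80low (blue) and F4/80high (orange), with grey lines joining the libraries of a replicate number. Itga9 is higher in all 3 pairs, at 7.72, 21.1 and 12.5 against 28.2, 83.2 and 78.1 CPM, and the replicate 3 libraries of Vcam1, Itgax, Itgal and Cd44 sit far above the others in both subsets.

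The leukocyte beta2 integrins held 4 of the 7 members with the highest mean FPKM, and all 6 genes of the family had fitted values below 0 with no call. Itgb2 (CD18) had the highest mean level of any member, at 193 FPKM over the 6 libraries, ahead of Itgb1 at 124 and Cd44 at 117 FPKM. Itgb2 read 471, 882 and 278 CPM in F4/80high and 791, 717 and 389 CPM in F4/80low, and its log2 fold change was -0.31 ± 0.23 (SE) with an adjusted p of 0.722 by edgeR. Its pairs differed by -0.75, 0.30 and -0.48, so they did not share a direction.

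Itgal, the CD11a chain of LFA-1 that binds ICAMs, measured 265, 136 and 547 CPM in F4/80high and 363, 249 and 1138 CPM in F4/80low. Each F4/80high library was below its partner, by -0.46, -0.88 and -1.06, and the log2 fold change was -0.80 ± 0.20 (SE; adjusted p 0.150 by edgeR). Itgax, the CD11c chain of complement receptor 4, stood at 90.9, 67.4 and 737 CPM in F4/80high and 149, 119 and 933 CPM in F4/80low. It too was lower in every pair (-0.71, -0.81 and -0.34), with a log2 fold change of -0.62 ± 0.19 (SE; adjusted p 0.280 by edgeR). The gated Itgam, the CD11b chain of complement receptor 3, read 462, 896 and 496 CPM in F4/80high and 925, 662 and 548 CPM in F4/80low. Its pairs went both ways (-1.002, 0.44 and -0.14) around a log2 fold change of -0.23 ± 0.27 (SE), and its sign turned without replicate 1, to 0.15. In GENCODE M21 its exons share 3450 bases with Gm49368 on the same strand. Gm49368 is not among the genes with deposited counts, and how reads in shared exons were counted is not given in the sources used here.

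In the makeup of the beta2 alpha chains, both replicate 3 libraries stood apart from the rest. Itgax made up 16.5% and 9.34% of the summed CD11a, CD11b and CD11c FPKM in F4/80high replicates 1 and 2 and 52.7% in replicate 3, against 15.4%, 17.0% and 46.6% in F4/80low. Itgam held 53.1%, 78.7% and 22.5% in F4/80high, against 60.7%, 60.3% and 17.4% in F4/80low. Itgad (CD11d), the least detected of the family, had 32, 2 and 4 counts in F4/80high and 24, 5 and 4 counts in F4/80low. Itgb2l, a paralog of Itgb2 found in neutrophils, measured 4.56, 1.07 and 8.31 CPM in F4/80high and 21.1, 12.2 and 4.78 CPM in F4/80low, and its fitted value was -1.76 ± 0.78 (SE) with pairs of -2.19, -3.44 and 0.79. Without replicate 3, where 0.156% of genes passed, Itgb2l was called beside Itga9, at -2.84 with an adjusted p of 0.0401 by edgeR.

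Itgam and Itgax lie next to each other on chromosome 7, and their promoters are shown because the 2 genes differed so much in replicate 3. That difference was present in both subsets, and replicate 3 was also the second batch. Any part of the promoters in it was not tested. The windows are chr7:128062390-128062639 for Itgam and chr7:128129300-128129549 for Itgax, both on the plus strand of GRCm38.p6, with the same motifs in capitals.
Itgam promoter: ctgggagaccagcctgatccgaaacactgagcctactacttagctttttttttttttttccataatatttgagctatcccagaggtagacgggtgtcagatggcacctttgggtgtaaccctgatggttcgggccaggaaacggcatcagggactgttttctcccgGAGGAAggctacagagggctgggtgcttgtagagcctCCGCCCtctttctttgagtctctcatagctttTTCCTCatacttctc
Itgax promoter: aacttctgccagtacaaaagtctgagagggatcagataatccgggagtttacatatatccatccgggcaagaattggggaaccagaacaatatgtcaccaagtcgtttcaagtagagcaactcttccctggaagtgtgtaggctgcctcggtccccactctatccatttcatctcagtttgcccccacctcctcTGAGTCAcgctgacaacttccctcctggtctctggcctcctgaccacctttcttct
The Itgam window held the PU.1 core at 84 and at 15 bases before the start, the second on the other strand, and a GC box at 47 bases on the other strand. The Itgax window held 1 AP-1 match, TGAGTCA, at 56 bases before the start, and no PU.1 core by these letters.

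**Figure D3:**
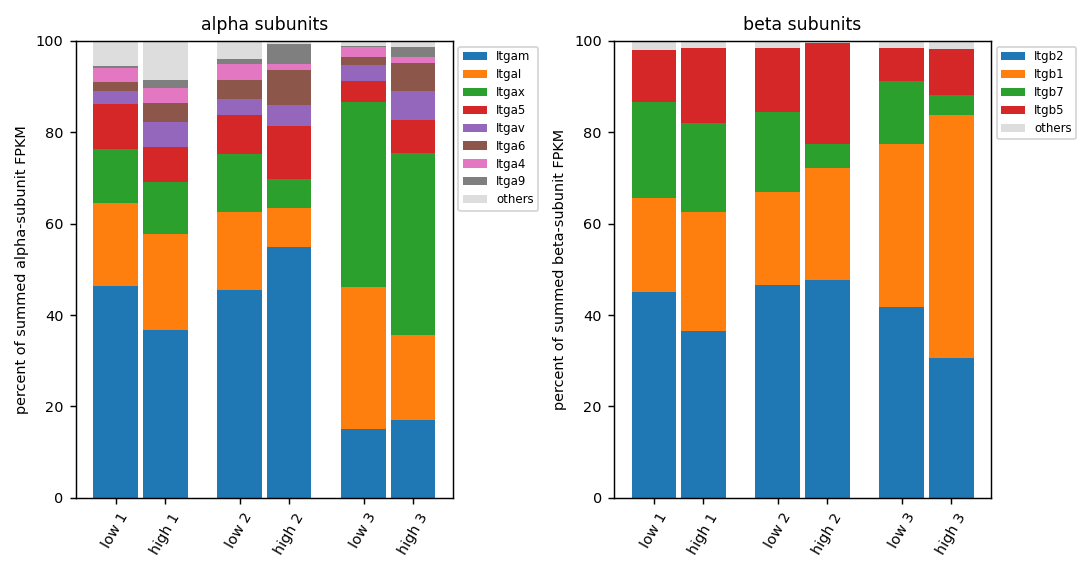
Share of summed alpha-subunit FPKM (left) and beta-subunit FPKM (right) held by the main chains in each library, as stacked bars side by side for the F4/80low and F4/80high library of each replicate. In replicate 3 Itgax makes up 39.8% (F4/80high) and 40.3% (F4/80low) of the alpha total, and Itgb7 is the smaller share in F4/80high of each pair.

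Among laminin receptors, Itga6 was higher in F4/80high in all 3 pairs. It encodes the alpha6 chain, which joins beta1 or beta4 and binds laminins of the basement membrane. Its level was 75.8, 179.7 and 252 CPM in F4/80high and 50.6, 83.2 and 94.9 CPM in F4/80low, so that only the lowest F4/80high library overlapped the F4/80low range. The log2 fold change was 1.03 ± 0.22 (SE) with an adjusted p of 0.103 by edgeR, and DESeq2 with the replicate block called it (1.04, adjusted p 0.00189). Itga7, the laminin chain best known in muscle, measured 2.37, 0 and 1.30 CPM in F4/80high and 4.33, 4.81 and 3.07 CPM in F4/80low, without overlap. The 0 in F4/80high replicate 2 allows up to 3 counts, or 0.0582 CPM, by counting error alone, against 196 counts in its partner. Its fitted value of -2.54 ± 1.41 (SE, adjusted p 0.628 by edgeR) depends on that library, since the other pairs gave -0.85 and -1.21. Itga3 and Itgb4 were at 0.277 to 6.38 CPM, with fitted values of -0.49 and -0.09.

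No RGD-binding or collagen-binding chain was called, and 1 of these 8 genes, Itga2b, had an unadjusted p under 0.05. Itgav, the alphaV chain that joins several beta chains and helps release active TGF-beta from its latent complex, measured 112, 123 and 322 CPM in F4/80high and 99.0, 87.2 and 217 CPM in F4/80low. All 3 of its pairs were higher in F4/80high, by 0.18, 0.50 and 0.56, with a log2 fold change of 0.41 ± 0.19 (SE; adjusted p 0.544 by edgeR). Itga5, the fibronectin receptor chain, had pairs of -0.99, 0.60 and 0.31 and a fitted value of -0.02 ± 0.31 (SE). Itga2b, the platelet alphaIIb chain, stood at 7.59, 4.42 and 1.62 CPM in F4/80high and 15.4, 8.30 and 7.40 CPM in F4/80low. It was lower in each pair, at -1.32 ± 0.43 on the log2 scale (SE; adjusted p 0.314 by edgeR), while the summed platelet markers were 3.02 to 8.69 CPM in F4/80high and 3.53 to 9.23 CPM in F4/80low. Itga8 went from -3.85 in pair 2 to 2.27 in pair 3. The collagen receptors Itga1, Itga2 and Itga10 had fitted values of -0.84, -0.39 and -0.73 with pairs in both directions. Itga11 was barely detected, with 0, 11 and 6 counts in F4/80high and 1, 1 and 0 counts in F4/80low, so no fold is given.

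Of the remaining beta chains, Itgb5 and Itgb8 were higher in F4/80high in each pair. Itgb5, a partner of alphaV, measured 236, 450.3 and 101 CPM in F4/80high and 221, 235 and 73.8 CPM in F4/80low. Its log2 fold change was 0.50 ± 0.22 (SE) with an adjusted p of 0.498 by edgeR, and its pairs differed by 0.10, 0.94 and 0.46. Itgb8, a further alphaV partner that presents latent TGF-beta, read 6.43, 2.17 and 2.38 CPM in F4/80high and 3.66, 1.06 and 0.683 CPM in F4/80low, giving 1.17 ± 0.60 (SE, adjusted p 0.601 by edgeR). Its level was low, at 0.247 FPKM. Itgb1, the most widely shared beta chain, stood at 451, 607 and 642 CPM in F4/80high and 477, 416 and 443 CPM in F4/80low. The fitted value was 0.33 ± 0.20 (SE, adjusted p 0.660 by edgeR), with pair 1 at -0.08 and the others at 0.55 and 0.53. Itgb3, the partner of alphaIIb and alphaV, gave -0.58 ± 0.30 (SE) with pairs of 0.01, -0.98 and -0.76.

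Vcam1, the endothelial and macrophage ligand of the alpha4 and alpha9 integrins, was higher in F4/80high in every pair without a call. It read 114, 153 and 538 CPM in F4/80high and 52.7, 58.4 and 448 CPM in F4/80low. Pairs 1 and 2 differed by 1.11 and 1.39 and pair 3 by 0.26, and the fit gave 0.93 ± 0.25 (SE) with an adjusted p of 0.189 by edgeR. The ICAM ligands had pairs in both directions. Icam1, the main ligand of LFA-1, measured 107, 103 and 189 CPM in F4/80high and 122, 89.8 and 264 CPM in F4/80low, a fitted value of -0.16 ± 0.21 (SE). Icam2 had a fitted value of -0.14 ± 0.43 (SE) with pairs of 0.23, -1.18 and 0.60. Icam4 and Icam5 had at most 12 and 16 counts in any library, and Icam5 had 0 in F4/80low replicate 2.

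The selectins and the sialomucin Cd34 were the role with the lowest median, at -1.33, and all 3 genes were lower in F4/80high in each pair. Cd34, a sialomucin that marks blood precursors, endothelium and mast cells, measured 28.2, 12.6 and 21.1 CPM in F4/80high and 49.1, 61.7 and 46.7 CPM in F4/80low. The groups were apart, and the mast cell and basophil markers given above were lower too, their part in this result not being tested. The log2 fold change was -1.41 ± 0.32 (SE) with an adjusted p of 0.120 by edgeR. DESeq2 called Cd34 with the replicate block (-1.41, adjusted p 0.00136) and with the batch term (-1.35, adjusted p 0.0189). Selp, P-selectin, read 2.80, 0.582 and 6.37 CPM in F4/80high and 3.91, 2.63 and 16.5 CPM in F4/80low, at -1.33 ± 0.51 (SE, adjusted p 0.417 by edgeR). Sele, E-selectin, stood at 1.84, 0.388 and 1.51 CPM in F4/80high and 2.05, 2.53 and 2.05 CPM in F4/80low, at -1.07 ± 0.87 (SE, adjusted p 0.753 by edgeR). The endothelial markers summed to 5.34 to 44.5 CPM in F4/80high and 3.36 to 19.4 CPM in F4/80low, with 2 of 6 tested genes higher and 4 lower. Replicate 2 of F4/80high was the lowest library for all 3 genes.

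All 4 junctional molecules had fitted values below 0, with no unadjusted p under 0.05. Jam3 measured 2.90, 0.679 and 7.45 CPM in F4/80high and 3.78, 3.66 and 11.6 CPM in F4/80low, with a log2 fold change of -1.12 ± 0.56 (SE; adjusted p 0.584 by edgeR). Jam2 had 0.252, 0.679 and 0.972 CPM in F4/80high and 2.18, 2.23 and 1.14 CPM in F4/80low, or 10, 35 and 9 counts against 87, 91 and 10. The fitted value of Jam2 was -1.71 ± 1.01 (SE; adjusted p 0.652 by edgeR), and its groups did not overlap although pair 3 differed by only -0.22. Pecam1 was lower in each pair, by -0.03, -0.45 and -0.86, and its fitted value was -0.45 ± 0.25 (SE). F11r, which encodes JAM-A, had a fitted value of -0.03 ± 0.20 (SE).

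Cd44, the hyaluronan receptor, was lower in F4/80high in each pair, and Cd47, the ligand of the SIRP-alpha receptor on phagocytes, likewise but by less. Cd44 read 363, 344 and 1139 CPM in F4/80high and 697, 446 and 1786 CPM in F4/80low, with pairs of -0.94, -0.37 and -0.65. Its log2 fold change was -0.66 ± 0.19 (SE) with an adjusted p of 0.233 by edgeR. Cd47 measured 458, 365 and 546 CPM in F4/80high and 492, 469 and 768 CPM in F4/80low, giving -0.32 ± 0.18 (SE, adjusted p 0.637 by edgeR). Alcam, which binds CD6 on T cells, had a fitted value of -0.02 ± 0.26 (SE).

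The difference of replicate 3 from the other replicates exceeded that between subsets for many members. Replicate 3 libraries differed from replicates 1 and 2 by more than the subset log2 fold change, in size, for 23 of 41 members. Itgax was higher there by 3.02 log2 units, Vcam1 by 2.51, Selp by 2.03, Itgal by 1.72 and Cd44 by 1.68, while Itgb7 was at -1.66 and Itgb5 at -1.65. On this measure, which averages replicates 1 and 2, Itga9 differed by 0.32 and Cd34 by -0.04. Replicates 1 and 2 were themselves apart for Itga9, at 28.2 and 83.2 CPM in F4/80high and 7.72 and 21.1 CPM in F4/80low. For Cd34 they read 28.2 and 12.6 CPM in F4/80high and 49.1 and 61.7 CPM in F4/80low. Replicate 3 was also the second batch and had the high share of Lars2, Gm23935 and Gm15564, and these cannot be told apart. Among the members, F4/80high replicate 2 stood apart in another way: 10 were below its partner by more than 2 log2 units, compared with 2 in pair 1 and 1 in pair 3. These 10 included Itgae (-3.72), Itga8 (-3.85), Itga10 (-3.12) and Itga1 (-2.80). The summed markers of mast cells and basophils and of fibroblasts were also lowest in that library, at 9.88 and 459 CPM. So were those of eosinophils, dendritic cells and keratinocytes, at 93.6, 79.8 and 5.26 CPM. Macrophage markers were highest there, at 31060 CPM, and the other lists, neutrophils among them, had their lowest sum in another library. Shares over all genes were not computed for these counts or for the 23 members above, so neither is shown to be particular to the members.

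**Figure D4:**
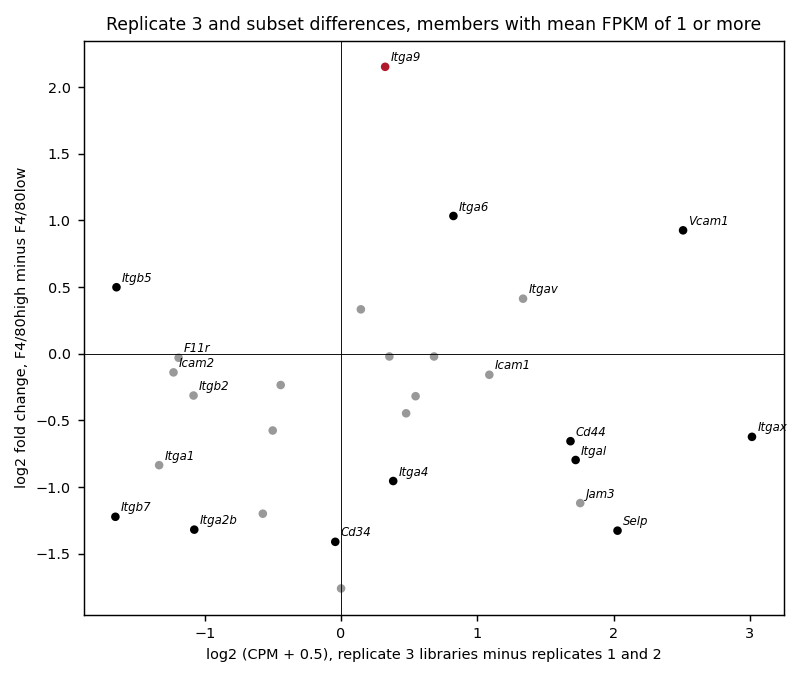
Log2 difference of replicate 3 libraries from replicates 1 and 2 (x axis, with 0.5 CPM added) against the log2 fold change between subsets (y axis) for members with a mean of at least 1 FPKM. Itga9 (red) has a large y value, 2.15, and a small x value, 0.32, while Itgax and Vcam1 lie at 3.02 and 2.51 on the x axis.

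**Figure D5:**
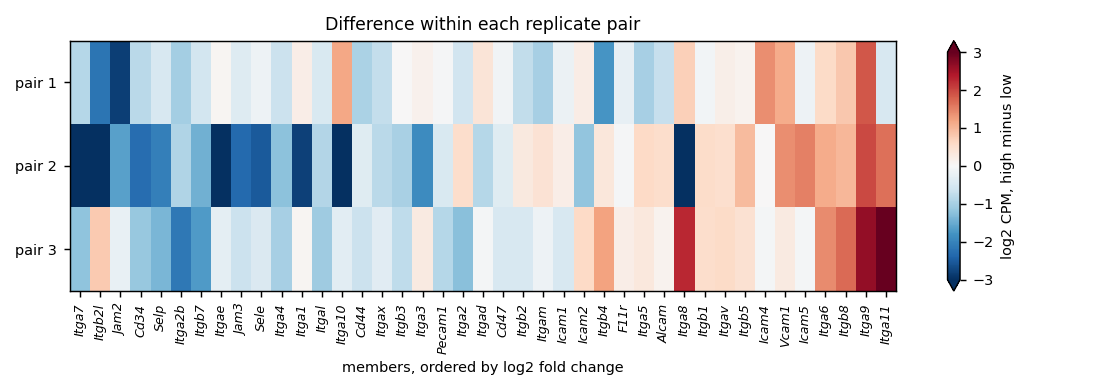
Log2 CPM difference, F4/80high minus F4/80low, of all 41 members within each pair, ordered by fitted log2 fold change, with colours saturating at 3 on either side. Pair 2 holds the darkest blue cells, with 10 members below -2, and Itga9 is red in all 3 pairs (1.86, 1.97 and 2.63).

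A further 5 lists around these receptors were read in the same fit, and none of their genes was called. Over all genes tested, 3.96% were higher and 5.88% lower at an unadjusted p under 0.05, the background for the counts that follow. Of the 40 tested genes of integrin activation and the adhesion complex, 1 was higher and 8 were lower at an unadjusted p under 0.05. Cd81, a tetraspanin partner of integrins, was higher at 0.98 ± 0.21 (SE; adjusted p 0.103 by edgeR). Zyx, a focal adhesion protein, gave -0.73 ± 0.18 and Syk, the kinase downstream of beta2 integrins, -0.75 ± 0.18 (SE; adjusted p 0.140 and 0.144 by edgeR). Of 28 extracellular ligands, 27 had fitted values below 0 and 8 had an unadjusted p under 0.05, all lower. Fibroblast markers, of which Col1a1, Col1a2 and Col3a1 are also in the ligand list, summed to 459 to 1557 CPM in F4/80high and 1079 to 1910.2 CPM in F4/80low. In the fit 7 of 8 fibroblast markers were lower, 5 of them in all 3 pairs and 3 at an unadjusted p under 0.05. Their part in the values of the ligands was not tested. Thbs1, thrombospondin-1, a ligand of CD47 and of several integrins, measured 1077, 1121 and 1803 CPM in F4/80high and 3389, 1703 and 3825 CPM in F4/80low. Its log2 fold change was -1.11 ± 0.22 (SE; adjusted p 0.0696 by edgeR). Cdh1, the E-cadherin that alphaE beta7 binds, was at -1.29 ± 0.29 (SE; adjusted p 0.117 by edgeR).

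Selectin ligands and rolling genes gave 0 higher and 6 lower of 15 at an unadjusted p under 0.05. Cd24a, a P-selectin ligand, was at -1.58 ± 0.30 (SE; adjusted p 0.0674 by edgeR). Genes of latent TGF-beta activation, which alphaV integrins serve, gave 1 higher (Tgfbr2, 0.55 ± 0.23) and 1 lower (Ltbp1, -0.43 ± 0.18) of 11. Ltbp1 measured 3577 and 3896 CPM in replicate 3 and 30.3 to 53.0 CPM elsewhere. A list drawn up around the other adhesion molecules gave 1 of 15, Cd200r1, at 0.85 ± 0.34 (SE; adjusted p 0.452 by edgeR). Cd200r1 encodes the receptor of CD200, which is not a member, so it is not a partner of the members.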

How the data were processed

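The study sorted TAM subsets for poly(A) RNA-seq at a sequencing center, whose standard pipeline processed the reads. The deposited values are raw read counts per gene, 1 file per library, with each gene's biotype and length as given by the authors. The aligner, counter, strand setting, build and annotation are not given in the sources used here. Protein-coding genes with at least 10 counts in total, the study's filter, were tested with edgeR 4.0.16 (TMM scaling, quasi-likelihood test, R 4.3.3), with replicate number as a block and subset as the effect, and p was adjusted by Benjamini-Hochberg over all genes tested. As in the study, genes were called where the adjusted p was under 0.05 and the log2 fold change exceeded 1 in size. The SE is the log2 fold change divided by the square root of its F statistic.

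The replicate number pairs the samples, since both subsets of a number came from the same pooled tumors of 1 experiment. Deviations of same-numbered libraries from their subset means correlated at 0.731, 0.708 and 0.893 over 10474 genes. Libraries of different numbers were not correlated in the same way, so these values cannot test the pairing. The block also holds the study's batch term, in which replicate 3 is the second batch. CPM is edgeR's cpm value on the scaled library size, FPKM divides CPM by gene length in kilobases, and pair differences add a prior count of 2. Totals of 16045281 to 43604373 counts set the precision, and floors of 3 counts cover counting error only. DESeq2 1.42.0, other scalings, filters and covariates, and left-out libraries were tried as alternatives. The script was tested on simulated data.

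The members, gene lists and this fit were chosen with earlier results of these data known. Members named with values in every library were those with an unadjusted p under 0.05, those with 3 pairs in agreement and an absolute log2 fold change above 1, and the 8 with the highest mean FPKM, and some of the other members are given by library as well. Gene coordinates come from GENCODE M21, in which all 41 members were found, and promoters from RefSeq, whose table held 28 of them. The values of 1 further gene of the pathway lists are not reported here.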

Additional observations from a re-analysis of the deposited data

How the results depend on the processing

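Fits were repeated under 18 alternatives. Itga9 kept its direction in all, with a log2 fold change of 1.65 to 2.76, and lost its call in 7, all of them edgeR fits without the replicate block. The other members named with full values kept their direction too, except Itgam, which was 0.15 without replicate 1 and 0.041 when F4/80high replicate 1 was left out of the fit with the batch term. The number of calls moved with the replicate block, the tool, the filters and the libraries left out. With the replicate block, 76 genes and 1 member were called. Without the block, edgeR called 0 genes and 0 members, both with the batch term and with no batch term, and 2 members had an unadjusted p under 0.05 in the latter, where 260 genes did. DESeq2 called 357 genes, 4 members and 5 pathway genes with the block, and 150 genes, 2 members and 2 pathway genes with the batch term.

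edgeR's own filter on low counts gave 16 calls over all genes and all biotypes gave 27. Scaling by library size alone, and a minimum of 1 count, gave 1 pathway gene each. Leaving out a replicate from the block gave 23 to 380 genes, 1 to 5 members and 0 to 7 pathway genes (0 without replicate 3, 3 without replicate 2 and 7 without replicate 1), a members' median of -0.51 to -0.34, and an Itgam value of -0.61 to 0.15. Leaving out single libraries with the batch term gave 0 to 55 genes, 0 to 2 members (2 without F4/80high replicate 1), 4 to 17 members with an unadjusted p under 0.05, and a median of -0.70 to -0.12. The cause of these differences was not tested.

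Depth limits the rare members most. A gene at 0 counts in a replicate 3 library has a floor of 0.324 to 0.342 CPM (3 counts), and Itga11, Icam4, Icam5 and Itgad had no more than 6 counts there. With 3 pairs, of which 1 is the second batch, a difference between batches in the subset effect could not be tested beyond the values of pair 3.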
